A study of Mus musculus with 4 samples.

Results

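The Hox genes are the transcription factor genes of the HoxA, HoxB, HoxC and HoxD clusters, which lie on mouse chromosomes 6, 11, 15 and 2. They were chosen by name alone, from the array probes whose RefSeq accession maps to a symbol of the form Hoxa, Hoxb, Hoxc or Hoxd followed by a number. The genes described here are 38 with 42 probes, of 21150 genes with 28020 named probes on the array. Expression was measured on 4 one-colour arrays in mouse mesenchymal stromal cells (MSCs), grown in primary culture to passage 5 and all carrying a retroviral short hairpin RNA. A control hairpin was on 1 array (shControl). The other 3 arrays each held a hairpin against its own target in Islr, which encodes the secreted and surface protein Meflin (shIslr, called hairpins 1, 2 and 3). The labels give neither the bone the cells came from, nor the strain, sex or age of the animals, nor whether the cultures came from separate preparations. The n of 3 therefore counts hairpins. The p-values rest on the spread between the 3 shIslr arrays, with the control array assumed to vary like them. For each gene, limma draws that spread toward the spread of all genes tested.

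Each cluster is a row of genes in the order of their numbers. Genes with low numbers are known as anterior and those with high numbers as posterior, and genes of the same number in different clusters form a paralogue group. During development the clusters open one gene after another from the low-numbered end, and fibroblasts and stromal cells of the adult keep a combination of active Hox genes that reflects the site they come from. The proteins bind DNA together with cofactors of the TALE homeodomain family (Pbx, Meis and Pknox), Polycomb proteins keep silent Hox genes silent, and trithorax proteins keep active ones active.

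Between 49.4% and 53.8% of the 59305 features were called well above background on an array, and none was saturated. The 75th percentile of the signal, by which each array was scaled, lay between 414.7 and 442.5. The lowest signal called above background was between 15.0 and 20.8. Islr itself had signals of 454 on the control array and 11, 70.5 and 3.44 with hairpins 1 to 3, above background on the control array and hairpin 2. Its log2 difference was -4.98 ± 2.19 (SD, n = 3, limma adjusted p = 0.963), with 1 of the 3 hairpin signals above background, and -2.60 with normexp background correction. All 15 MSC and fibroblast markers were above background on all 4 arrays, with summed signals of 482238 to 562277. Of the 9 leukocyte markers on the array, Ptprc, Adgre1 and Lyz2 were above background on no array, while Cd68, Itgam, Cd14, Csf1r and Cd3e were above it on all 4. Summed over the list, the leukocyte signal came to 12279 for the control and 12248, 10740 and 8237 for hairpins 1 to 3. Sox10 and Cdh5, defining markers of neural crest derivatives and endothelium, were above background on no array. The part of other cell types in the Hox signals was not tested.

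Coding genes of the HoxA, HoxB and HoxC clusters were above background, and none of HoxD was. Of the 38 Hox genes, 24 (63.2%) were above background on all 4 arrays, beside 60.2% of all named genes. They were 8 of 10 in HoxA, 8 of 10 in HoxB, 8 of 9 in HoxC and 0 of 9 in HoxD. Within the first 3 clusters, the 22 genes of paralogue groups 2 to 10 were all above background on all 4 arrays, and of the 6 genes of groups 11 to 13 only Hoxc11 and Hoxc13 were. Hoxb1, of group 1, was above background on no array. Every call was the same on the control array as on hairpins 1 and 2, and 2 genes were added on hairpin 3.

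**Figure D1:**
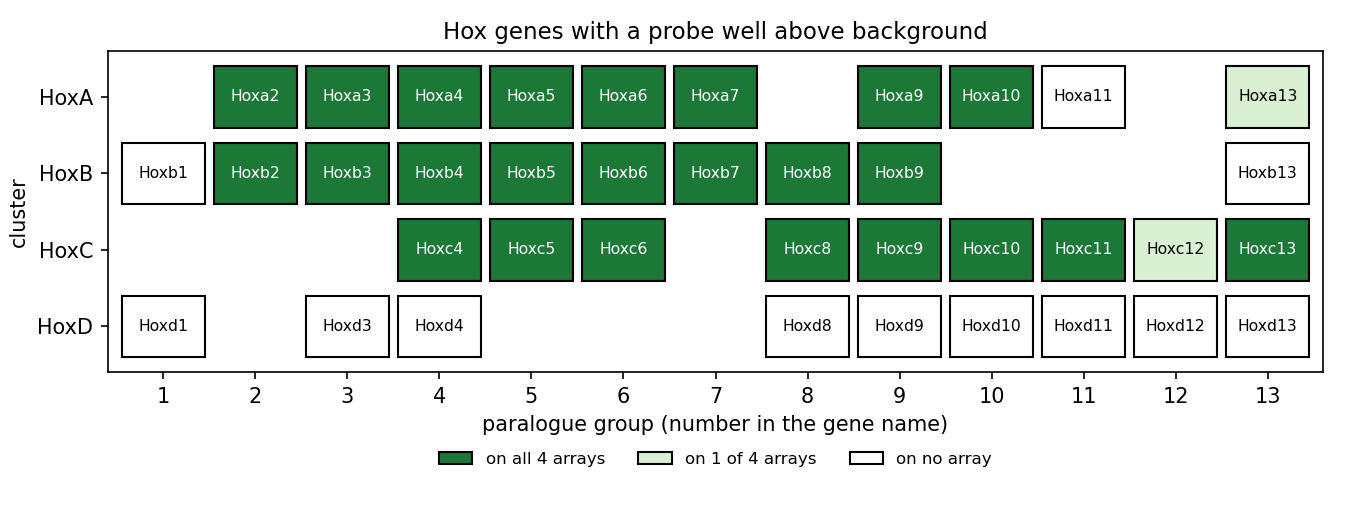
Hox genes on the array, with the cluster on the vertical axis and the paralogue group (the number in the gene's name) on the horizontal axis. Dark boxes are genes above background on all 4 arrays (24), pale boxes those above it on 1 array (Hoxa13 and Hoxc12, both on hairpin 3), and open boxes those above it on no array (12). The HoxD row is open throughout, and in the other rows every box of groups 2 to 10 is dark.

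Promoter sequences show what a detected gene and an undetected paralogue of it look like at their starts. The stretches below are the 250 bases before the start of genes of groups 4 and 8, from the RefSeq promoter table (build GRCm38.p6). Hoxb4 and Hoxc4 gave signal on all 4 arrays and Hoxd4 on none. Capitals mark matches, on either strand, to 4 motifs. The Hox-Pbx site was searched as TGATNNAT, with any base at each N. The site of Meis proteins was searched as TGACAG. The core promoter element known as the TATA box was searched as TATAAA in this exact spelling. The CCAAT box, which lies upstream in many promoters, was searched by those letters. No stretch shown has matches that overlap. Each stretch runs 5' to 3' on the plus strand, and a position is that of the first base of the match, counted back from the start. Hoxb4 lies at chr11:96318017-96318266, Hoxc4 at chr15:103034145-103034394 and Hoxd4 at chr2:74721728-74721977.
Hoxb4: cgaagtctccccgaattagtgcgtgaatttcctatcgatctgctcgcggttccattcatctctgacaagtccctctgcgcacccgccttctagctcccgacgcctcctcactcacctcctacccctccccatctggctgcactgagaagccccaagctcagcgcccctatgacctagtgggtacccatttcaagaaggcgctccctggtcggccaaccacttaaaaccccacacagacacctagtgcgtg
Hoxc4: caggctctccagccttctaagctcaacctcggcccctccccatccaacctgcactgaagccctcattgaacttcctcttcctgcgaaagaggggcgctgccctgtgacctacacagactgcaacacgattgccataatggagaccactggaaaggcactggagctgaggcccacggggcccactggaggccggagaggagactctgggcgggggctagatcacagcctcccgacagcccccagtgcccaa
Hoxd4: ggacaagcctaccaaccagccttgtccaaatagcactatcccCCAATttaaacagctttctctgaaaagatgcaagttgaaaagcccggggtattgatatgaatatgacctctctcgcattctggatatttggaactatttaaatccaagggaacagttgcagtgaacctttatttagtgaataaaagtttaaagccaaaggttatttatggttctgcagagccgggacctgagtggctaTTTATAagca
The Hoxb4 and Hoxc4 stretches hold none of the 4 motifs. The Hoxd4 stretch has a TATA box match at position -10 and a CCAAT box match at -208. Its GC content is 40.4% with 3 CpG dinucleotides, beside 58% with 14 CpG in Hoxb4 and 62% with 8 in Hoxc4.

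In group 8, Hoxb8 gave signal on all 4 arrays and Hoxd8 on none. Their stretches lie at chr11:96281655-96281904 and chr2:74704365-74704614, both on the plus strand of the same build.
Hoxb8: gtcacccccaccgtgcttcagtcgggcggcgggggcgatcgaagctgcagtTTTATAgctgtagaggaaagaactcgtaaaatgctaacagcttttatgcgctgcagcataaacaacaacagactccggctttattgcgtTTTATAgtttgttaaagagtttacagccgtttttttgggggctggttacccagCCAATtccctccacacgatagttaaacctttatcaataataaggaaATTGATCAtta
Hoxd8: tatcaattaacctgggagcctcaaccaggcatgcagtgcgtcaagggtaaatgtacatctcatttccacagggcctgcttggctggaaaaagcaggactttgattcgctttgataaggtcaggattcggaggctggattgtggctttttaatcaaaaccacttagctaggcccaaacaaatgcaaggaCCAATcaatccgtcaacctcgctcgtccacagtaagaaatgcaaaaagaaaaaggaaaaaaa
The Hoxb8 stretch holds a Hox-Pbx match at -11, TATA box matches at -199 and -110 and a CCAAT box match at -57. The Hoxd8 stretch holds a CCAAT box match at -62 and none of the other motifs. Their GC content is the same at 44.4%, with 12 CpG in Hoxb8 and 6 in Hoxd8.

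The RefSeq table holds 24 starts of 22 Hox genes among 32851 starts. CCAAT boxes were found in 14 of the 24 (58.3%), against 33.8% of all promoters of this length. TATA boxes stood in 4 (16.7%, against 12.4%), Hox-Pbx sites in 4 (16.7%, against 7.68%) and Meis sites in 2 (8.33%, against 15.9%). The median CpG number was 12.5 over the Hox starts and 6 over all starts. Over the 11 starts of Hox genes above background on all 4 arrays it was 12, and over the 13 starts of the others 13. Those 11 starts belong to only 10 of the 24 Hox genes above background on all 4 arrays. The CpG number was thus much alike in the detected and undetected Hox genes that the table holds. A match is a description of these letters and does not show that a factor binds there.

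HoxD was at the background of the array throughout. Its 10 probes had median signals of 4.47 on the control array and 4.84, 4.46 and 3.39 with hairpins 1 to 3, below the lowest called signal of each array. Hoxd1, Hoxd3, Hoxd8, Hoxd9, Hoxd10, Hoxd11, Hoxd12 and Hoxd13 lay between 3.2 and 5.19 on every array. Hoxd4 differed from these on the control array only, with 11.9 there and 5.27, 4.86 and 3.79 on hairpins 1 to 3. A milder call of the scanner software (positive and significant against the background) marked Hoxd4 on 1 array and the other HoxD genes on no array. Hoxd10 to Hoxd13 are the posterior genes that pattern the forearm, hand and digits and the genital tubercle.

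Genes next to the HoxD cluster were measured above background. Mtx2, a gene of mitochondrial import that flanks the cluster, had signals of 3332 on the control array and 2696, 3127 and 1975 with hairpins 1 to 3. Lnpk, a gene of endoplasmic reticulum structure beside the cluster, had 121, 92, 137 and 134 in the same order. Evx2, the homeobox gene at the posterior end of HoxD, was at background with 4.61, 4.94, 4.52 and 3.45. Haglr, a long noncoding RNA of the HoxD cluster, was above background on all 4 arrays, with 187, 152, 313 and 168. So a noncoding transcript of the cluster gave signal on arrays where none of its 9 coding genes did. Of the 19 noncoding genes listed for the 4 clusters, the array held 4 under a RefSeq name. Hoxa11os, the antisense RNA of Hoxa11, was near the limit with 25.3, 25.1, 25.2 and 27.2, and Hottip and Hoxd3os1 were above background on no array. Lnpk, Evx2, Hoxa11os, Hottip and Hoxd3os1 were named after their values were seen.

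Outside HoxD, the genes not above background on all 4 arrays were Hoxb1 and genes of groups 11 to 13. Hoxb1, the anterior gene of HoxB that acts in the hindbrain, had signals of 4.61, 4.99, 4.57 and 3.7 on the control array and hairpins 1 to 3. Hoxa11, a forearm and uterus gene, had 5.61, 5.87, 5.64 and 4.66. Each of these probes was printed in 10 spots, and none of the spots was above background on any array. Hoxb13, the posterior gene of the prostate and tail bud, had 4.68, 4.98, 4.58 and 3.59. Hoxa13, a digit and genital gene, had 14.4, 13.8, 14.9 and 20.3 on its brighter probe. Hoxc12 had 12.7, 19.5, 16.1 and 22.1. Both were above background only on hairpin 3, the array with the lowest called signal (15.0) and the largest share of features above background (53.8%). Under the milder call, Hoxa13 and Hoxc12 were marked on all 4 arrays.

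**Figure D2:**
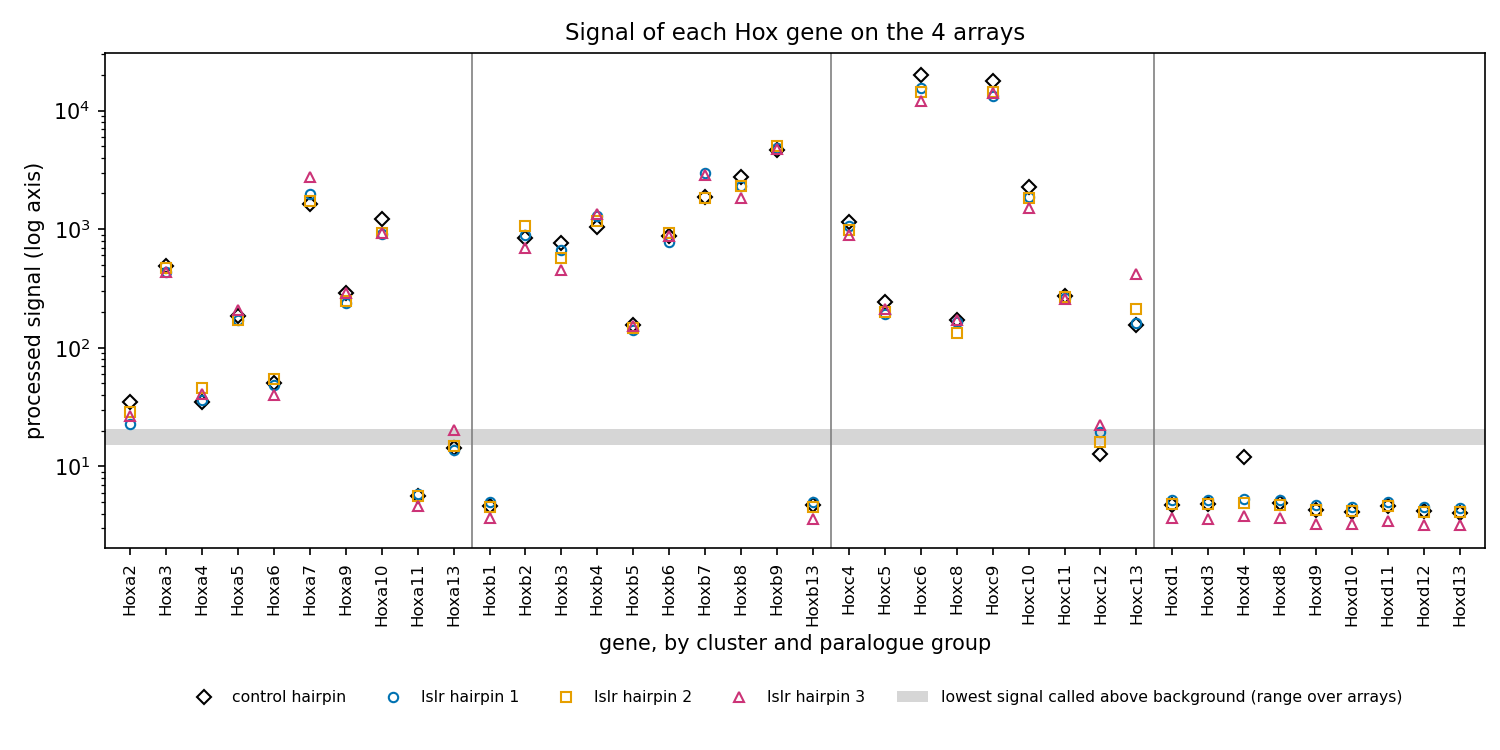
Processed signal of each of the 38 Hox genes (vertical axis, arbitrary units, log scale), ordered by cluster and paralogue group on the horizontal axis and drawn from the kept probe, or the brightest where none was kept. Symbols are single arrays, and the grey band is the range over arrays of the lowest signal called above background (15.0 to 20.8). HoxD lies under the band. Heights of different genes also depend on their probes and are not ranked.

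Among the anterior genes (groups 1 to 3), 4 of 5 in HoxA and HoxB were above background. Hoxa2, which sets the identity of the second pharyngeal arch, was near the limit with signals of 35 on the control array and 22.6, 28.6 and 26.5 with hairpins 1 to 3. Hoxa3, needed for thymus and parathyroid, had 486, 431, 468 and 435. Hoxb2, another hindbrain gene, had 850, 885, 1055 and 700. Its 3 hairpin signals lay on both sides of the control. Hoxb3 had 759, 664, 570 and 453 on its brighter probe and 324, 251, 238 and 208 on the other, and both probes were highest on the control array.

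The middle of the clusters (groups 4 to 8) was above background at all 13 genes of HoxA, HoxB and HoxC. Hoxa4 had signals of 35.2 on the control array and 36, 45.8 and 41 with hairpins 1 to 3. Hoxb4, known for expanding blood stem cells when overexpressed, had 1049, 1283, 1179 and 1352. Hoxc4 had 1158, 1056, 993 and 889. So the control array was the lowest of the 4 for Hoxa4 and Hoxb4 and the highest for Hoxc4. Hoxa5, a gene of the lung and neck vertebrae, had 187, 170, 173 and 208. Hoxb5 had 154, 142, 146 and 153. Hoxc5 had 244, 193, 200 and 214. Of the group 5 genes, Hoxa5 was highest on hairpin 3, and Hoxb5 (narrowly) and Hoxc5 on the control array. Hoxa6 had 50.2, 48.8, 54.4 and 39.6. Hoxb6 had 869, 778, 920 and 870. Hoxc6, a gene of forelimb-level spinal cord and trunk, had 19951, 15454, 14475 and 12121, with all 3 hairpins under the control. Hoxa7 had 1639, 1975, 1715 and 2748. Hoxb7 had 1852, 2961, 1840 and 2856. Both group 7 genes were higher on hairpins 1 and 3 than on the control array, and close to it on hairpin 2. Hoxb8, a gene of the blood and microglial lineage and of trunk patterning, had 2757, 2318, 2322 and 1820. Hoxc8, a trunk gene, had 170, 165, 132 and 173. Hairpin 3 was the lowest array for Hoxb8 and hairpin 2 for Hoxc8.

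In groups 9 and 10, all 5 genes of HoxA, HoxB and HoxC were above background. Hoxa9, a gene of blood progenitors, had signals of 288 on the control array and 239, 247 and 289 with hairpins 1 to 3, and 208, 161, 193 and 179 on its second probe. Hoxb9 had 4649, 4857, 5061 and 4768. Hoxc9, which sets thoracic motor neuron identity, had 17762, 13166, 14374 and 14077. The 3 Hoxc9 hairpin signals lay close together and under the control. Hoxa10, a gene of the uterus and lumbar vertebrae, had 1223, 918, 929 and 923, and Hoxc10, active at lumbar and hindlimb level, had 2268, 1864, 1818 and 1508. For both group 10 genes the control array was the highest of the 4. Beyond group 10, Hoxc11 had 272, 261, 270 and 256. Hoxc13, the gene of hair and nail keratins, had 155, 162, 211 and 417, with hairpin 3 apart from the other arrays.

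The second comparison asked whether the Hox genes differed between the shIslr arrays and the shControl array. Differences are log2 of the signal after division by the array's 75th percentile, hairpin minus control, so a small difference between raw signals can take another sign after scaling. By limma with Benjamini-Hochberg adjustment over 13561 genes, 0 of the 24 Hox genes tested were called higher and 0 lower at an adjusted p of 0.05, while 0% of all genes tested were called higher and 0.347% lower. At an unadjusted p of 0.05 the Hox count was also 0, beside 1.52% of all genes higher and 3.31% lower. A fit on the 12718 genes above background on all 4 arrays, as the Hox genes tested were, also called 0 genes, with 202 higher and 266 lower at an unadjusted p of 0.05. The lowest adjusted p of a Hox gene was 0.963 and the lowest unadjusted p 0.112 (Hoxa10). Islr itself, with a log2 difference of -4.98, was not called, so the test can miss a large change. None of the 24 was 2-fold from the control on all 3 hairpins. Of all genes tested, 0.236% reached that size upward and 1.69% downward, and of the 12718 genes 0.0944% and 0.315%. The 14 Hox genes left out of the test had not passed the filter. All 24 tested were above background on all 4 arrays, so none entered through 1 group.

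The median of the mean difference over the 24 Hox genes was -0.06, beside 0.02 over the 12718 genes above background on all 4 arrays. The Hox medians were -0.04, -0.07 and -0.09 on hairpins 1 to 3, and those of the 12718 genes 0.01, 0.01 and 0.07. The median SD over the 3 hairpins was 0.14 for the Hox genes and 0.19 for the 12718 genes. By direction, the control array was the highest of the 4 for 10 of the 24 Hox genes and the lowest for 6, while 8 had hairpins on both sides of it. Among the 12718 genes the control was highest for 22.7% and lowest for 28.8%. These directions share the single control array, whose own error enters every difference.

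HoxC had the lower medians of the 3 detected clusters. Its median differences were -0.12, -0.27 and -0.23 on hairpins 1 to 3, with 5 of 8 genes lower and 1 higher on all 3. HoxA had -0.06, -0.06 and -0.05, with 3 of 8 lower and 2 higher. HoxB had 0.06, 0.06 and 0.03, with 2 of 8 lower and 3 higher. The difference between clusters was not tested. Hoxc6 had log2 differences of -0.28, -0.44 and -0.69 (mean -0.47 ± 0.21, SD, n = 3, limma adjusted p = 0.963), which is 1.38-fold lower. Hoxc10 had -0.19, -0.30 and -0.56 (mean -0.35 ± 0.19). Hoxc9 had -0.34, -0.28 and -0.31 (mean -0.31 ± 0.03). For Hoxc9 the differences of the hairpins were thus nearly the same size. Hoxc5 had a mean of -0.22 ± 0.06 and Hoxc4 of -0.20 ± 0.16, while Hoxc8 (-0.08 ± 0.23) and Hoxc11 (-0.01 ± 0.05) lay on both sides of 0. The 5 genes that were lower on all 3 hairpins were so under each of 4 other scalings too. For scale, the median SD of log2 signal over 10 repeated spots of a probe was 0.06 to 0.07 within an array, which covers spot error and not the error of a culture.

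Hoxc13 went the other way from its cluster. Its log2 differences were 0.16, 0.47 and 1.46 (mean 0.70 ± 0.68, SD, n = 3, standard error 0.55, limma adjusted p = 0.963), or 1.62-fold higher. The SD was as large as the mean, and without hairpin 3 the mean was 0.32. Among the 24 Hox genes tested, Hoxc13 on hairpin 3 was the 1 difference that reached 2-fold on any hairpin, a size that 9.43% of the 12718 genes reached on at least 1 hairpin.

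In HoxA, Hoxa10 was lower by nearly the same amount on each hairpin, with -0.32, -0.37 and -0.38 (mean -0.36 ± 0.03), beside an adjusted p of 0.963 by limma. Its limma standard error was 0.18, because limma draws the spread of a gene toward that of all genes tested. Hoxa2, close to background, had a mean of -0.39 ± 0.14, which shrank to -0.06 with normexp background correction. Hoxa3 had -0.08 ± 0.05 and was on both sides of 0 with that correction. Hoxa7 was higher on all 3 hairpins at 0.41 ± 0.35 (0.23 without hairpin 3) and Hoxa4 at 0.26 ± 0.14, the latter at 0.08 with normexp. Hoxa5 (0.02 ± 0.15), Hoxa6 (-0.04 ± 0.24) and Hoxa9 (-0.12 ± 0.13) lay on both sides of 0. The second probe of Hoxa9 was lower on all 3 hairpins (-0.18 ± 0.10), and the gene was so under normexp and the series table.

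In HoxB, Hoxb3 had the lowest mean difference, with -0.10, -0.39 and -0.72 (mean -0.40 ± 0.31), and Hoxb8 had -0.32 ± 0.22. Without hairpin 3 these means were -0.25 and -0.19. Hoxb4 was higher on all 3 hairpins, with 0.38, 0.19 and 0.40 (mean 0.32 ± 0.11). Hoxb7 had 0.77, 0.01 and 0.65 (mean 0.48 ± 0.41) and Hoxb9 0.12 ± 0.05. Hoxb7 lost its single direction under median centring, normexp and the deposited series table, and Hoxb9 under quantile normalization and the series table. Hoxb2 (0.08 ± 0.30), Hoxb5 (-0.02 ± 0.04) and Hoxb6 (0.02 ± 0.09) lay on both sides of 0. Along the clusters, the median of the mean difference was -0.24 over the 4 genes of groups 1 to 3, -0.02 over the 13 of groups 4 to 8 and -0.12 over the 7 of groups 9 to 13. Hairpin 3 was the lowest of the 4 arrays for 10 of the 24 genes, beside 23.9% of the 12718 genes.

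**Figure D3:**
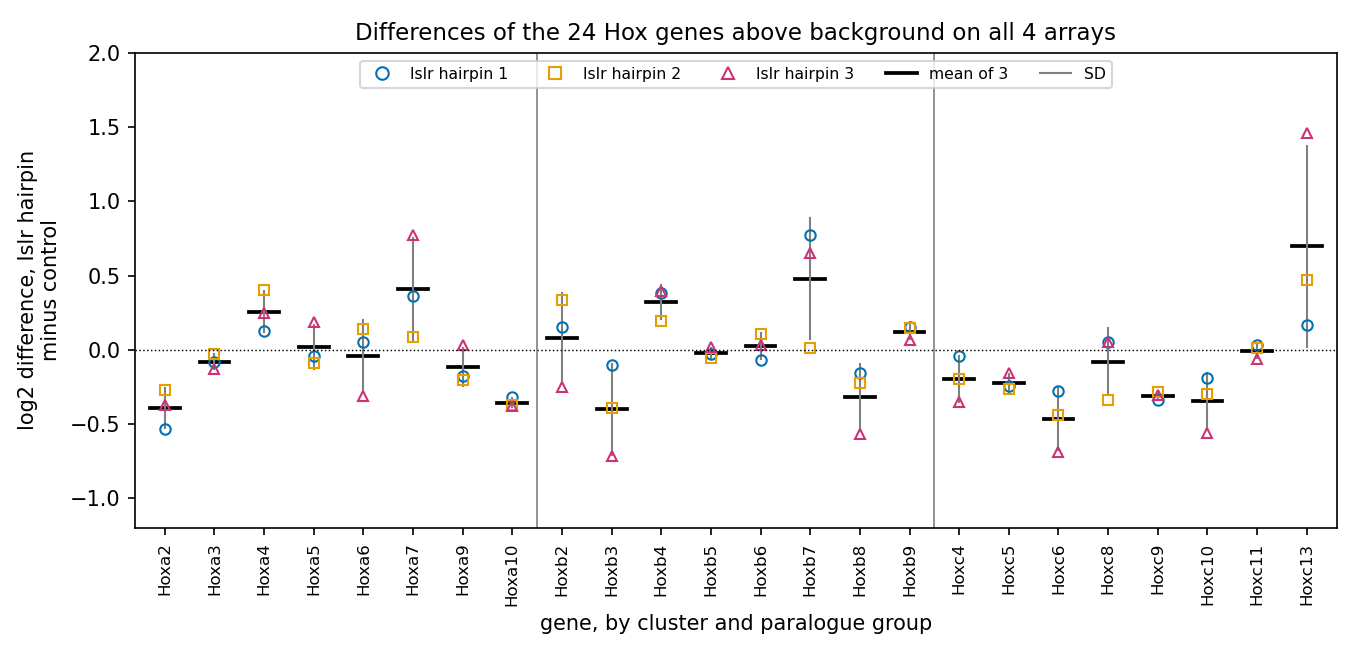
Log2 difference from the control array (vertical axis, after scaling to the 75th percentile) of the 24 Hox genes above background on all 4 arrays, by cluster and paralogue group. Symbols are the 3 hairpins, black bars their mean and grey lines 1 SD either side. All means but that of Hoxc13 lie within 0.5 of 0, 5 of the 8 HoxC genes have all 3 symbols under 0, and Hoxc13 on hairpin 3 is the 1 symbol above 1.

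Paralogues of the same number had the same direction in some groups and not in others. In group 4, Hoxa4 and Hoxb4 were higher on all 3 hairpins and Hoxc4 lower. In group 9, Hoxb9 was higher, Hoxc9 lower and Hoxa9 on both sides on its brighter probe. Hoxb9 kept its direction under only 2 of 4 other scalings, and the second probe of Hoxa9 was lower on all 3 hairpins. Both group 7 genes were higher and both group 10 genes lower, though Hoxb7 lost its single direction under 3 of 4 other scalings. None of these genes passed the test, and no difference between paralogues was tested.

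The TALE homeodomain genes encode the proteins that bind DNA with Hox proteins (Pbx, Meis and Pknox) and the related repressors Tgif1 and Tgif2. Signal stood above background on every array for 9 of the 10. By limma 0 were called, and the lowest unadjusted p was 0.0545. In the fit on the 12718 genes it was 0.048, with 1 of the 9 lower under 0.05, beside 266 of the 12718 genes. All 3 Meis genes, Pbx3, Pknox1 and Pknox2 were lower on all 3 hairpins (6 of 9, beside 22.7% of the 12718 genes), and they were so under 4 other scalings. The median differences of the list were -0.10, -0.39 and -0.62 on hairpins 1 to 3. Meis1, a partner of posterior Hox proteins, had signals of 5713 on the control array and 3434, 4247 and 3195 with hairpins 1 to 3, a mean difference of -0.62 ± 0.20 (limma adjusted p = 0.963). Meis2 had 2771, 2430, 1824 and 1765 (-0.43 ± 0.29). Meis3 had 2840, 1977, 2132 and 1132 (-0.71 ± 0.51), with a mean difference of -0.41 without hairpin 3 and of -0.30 over all its probes. For each Meis gene the control was the highest array, though Meis2 on hairpin 1 was close to it and the dimmest probe of Meis3 lay on both sides of 0. Pbx3 had 3510, 3208, 2067 and 2119 (-0.49 ± 0.39). Pknox1 (-0.26 ± 0.15) and Pknox2 (-0.39 ± 0.32) had smaller negative means, while Pbx2 (-0.14 ± 0.36) and Tgif2 (0.10 ± 0.54) lay on both sides. Tgif1 was higher on all 3 hairpins at 0.11 ± 0.13 and lost that direction under all 4 other scalings. Pbx4 was above background on hairpin 3 only.

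**Figure D4:**
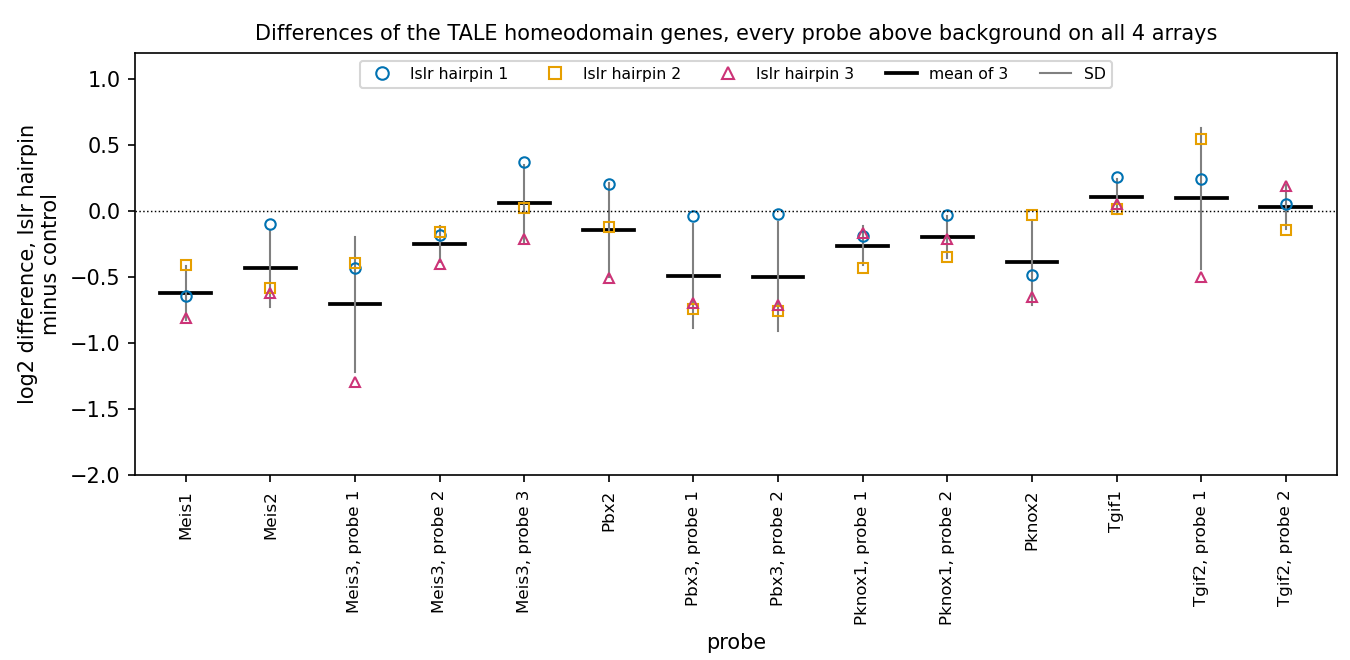
Log2 difference from the control array (vertical axis, after scaling to the 75th percentile) of each of the 14 probes of TALE homeodomain genes above background on all 4 arrays (horizontal axis). Symbols are the 3 hairpins, black bars their mean and grey lines 1 SD either side. On 9 probes all 3 hairpins lie under 0, on 1 (Tgif1) above it and on 4 on both sides.

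Other factors of limb and regional identity are used beside the Hox code to place a mesenchymal cell. Of 39 on the array, 22 were above background on all 4 arrays and 12 on none. The head factors Otx1 and Otx2 and the sclerotome factors Pax1 and Pax9 were among the 12, named after their values were seen. Tbx4 and Pitx1 act in the hindlimb and Tbx5 in the forelimb. Tbx4 was dim, with signals of 54.6 on the control array and 52.1, 53.9 and 62.5 with hairpins 1 to 3, and Pitx1 was at background with 4, 4.32, 12.4 and 3.15. Tbx5 had 39.4, 10.3, 4.96 and 6.07. It was above background on the control array only, at least 2.1-fold lower on average, which sets the control against the mean over the hairpin arrays of each one's lowest called signal (limma adjusted p = 0.452). With normexp background correction its difference of -2.49 shrank to -0.47. Isl1, another hindlimb factor, had 7.88, 41.7, 8.43 and 107 and was above background on hairpins 1 and 3 (named after its values were seen). En1, a ventral limb factor, was at background with 6.85, 4.86, 4.69 and 3.56. Lmx1b, the dorsal limb factor, had 46.8, 47.6, 50.7 and 55 on one probe (0.17 ± 0.08) and 50.5, 37.2, 25.2 and 30 on another (-0.68 ± 0.32), so its probes disagree in direction.

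Brighter members of this list included trunk and girdle factors. Prrx1, a marker of limb and flank mesenchyme, had signals of 10730, 8544, 8838 and 10604 on the control array and hairpins 1 to 3. Tbx15, a factor of the trunk and limb skeleton, had 3250, 2720, 2796 and 2696 (-0.20 ± 0.04). Emx2, needed for the shoulder blade and the urogenital tract, had 1934, 1040, 1580 and 796 (-0.77 ± 0.49). Emx2 was lowest on hairpin 3 and highest on the control array. Twist2 (0.48 ± 0.55) and Tbx18 (0.45 ± 0.41) had positive means, Twist2 with hairpin 2 under 0. Msx1, a limb bud and skull factor, had 179, 197, 260 and 256 (0.44 ± 0.19). Of the 21 genes whose probe was above background on all 4 arrays, 6 were higher and 6 lower on all 3 hairpins, with a median of -0.03. Among the 12718 genes above background on all 4 arrays, 28.8% were higher and 22.7% lower. By limma 0 of the 25 members tested were called. At an unadjusted p of 0.05, 2 were lower, Tbx5 and Lhx9, whose probes were not above background on all 4 arrays. Of all genes tested, 3.31% were lower at that threshold.

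Chromatin regulators of the clusters were above background nearly throughout. Of 26 Polycomb genes 25 were above background on all 4 arrays, and Cbx7 was on none, with 5.81, 5.8, 7.18 and 11.1 on the control array and hairpins 1 to 3. By limma 0 were called, with 1 higher and 0 lower at an unadjusted p of 0.05, beside 1.52% and 3.31% of all genes tested. On all 3 hairpins 7 were higher and 5 lower, with a median of 0.01. Of the 12718 genes above background on all 4 arrays, 28.8% were higher and 22.7% lower. Pcgf5, a subunit of a variant Polycomb complex, had 3263, 4455, 4527 and 4758 (0.54 ± 0.04), and its second probe had 0.50 ± 0.06. The H3K27 methyltransferases lay apart in sign, with Ezh2 at 0.39 ± 0.22 (1819, 1876, 2578 and 2536) and Ezh1 at -0.38 ± 0.07 (5041, 3825, 3703 and 3705). Phf1, an accessory protein of their complex, had -0.43 ± 0.19, and Bmi1 had 0.18 ± 0.13 on its brighter probe and -0.07 ± 0.23 on the other. Of 12 trithorax and demethylase genes, all above background, 5 were higher and 2 lower on all 3 hairpins, beside the same 28.8% and 22.7%. By limma 0 of them were called, and 0 had an unadjusted p under 0.05. Psip1 and Rbbp5 both had 0.31 (SD 0.23 and 0.07), Kmt2d 0.30 ± 0.35 and the H3K27 demethylase Kdm6b -0.29 ± 0.39. Kmt2a, the methyltransferase most tied to Hox genes, had no probe with a matched name.

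The flanking and upstream genes gave 0 calls by limma as well, with 1 gene (Gmnn) higher at an unadjusted p under 0.05. Of all genes tested, 1.52% were higher and 3.31% lower at that threshold. Of 17 ParaHox, Cdx and flanking genes on the array, 8 were above background on all 4 arrays, and all of these were flanking genes. Cdx2 and Cdx4, the caudal factors that switch on trunk Hox genes in the embryo, were above background on no array and Cdx1 on 1. The flanking genes Snx10 (0.48 ± 0.57), Cbx1 (0.39 ± 0.32), Calcoco1 (-0.38 ± 0.33) and Mtx2 (-0.34 ± 0.35) had the larger differences. Without hairpin 3 the mean was 0.15 for Snx10 and -0.14 for Mtx2, and without hairpin 2 it was -0.19 for Calcoco1. Of 19 genes of the signals that set Hox domains in the embryo, mainly retinoic acid, Gdf11, Wnt and Fgf, 15 were above background on all 4 arrays. Of these, 4 were higher and 3 lower on all 3 hairpins, beside 28.8% and 22.7% of the 12718 genes. Cyp26b1, which degrades retinoic acid, had signals of 341 on the control array and 497, 499 and 1168 with hairpins 1 to 3 (1.01 ± 0.69, limma adjusted p = 0.963), with a mean of 0.61 without hairpin 3. Gmnn, a replication inhibitor that also binds Hox proteins, had 550, 865, 1164 and 948 (0.89 ± 0.19, adjusted p = 0.756). Both were higher than the control on each hairpin. Tgfbr1 (-0.43 ± 0.64) and Crabp1 (-0.43 ± 0.76) lay on both sides of 0. The Cdx genes and Lhx9 were named after their values were seen.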

How the data were processed

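Total RNA of 4 cultures was labelled with Cy3 and hybridised to 1-colour arrays, 1 per sample, per the labels. Per the file headers, the authors used Agilent Feature Extraction 11.5.1.1 (protocol GE1_1105_Oct12, design 028005, build mm9), and all 4 arrays lay on 1 slide and 1 scan. The deposited values used are processed signal intensity (background-subtracted, linear) and the software's flags for signal above background. The deposited series table is that intensity times 1 factor per array (2.02 to 2.25).

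Spots of a probe were averaged as log2, and each array's log2 75th percentile was subtracted. Symbols came from matching accessions to a RefSeq table (28020 probes matched, 27661 not). A probe was kept where the control, or all 3 hairpins, gave signal above background, with more than 50% of a probe's spots required on an array, and the kept probe of highest mean signal stood for a gene. Detection of a gene counted any probe. The comparison of genes used limma 3.58.1 under R 4.3.3 (lmFit, eBayes, two-sided, Benjamini-Hochberg over 13561 genes). Its code was tested on simulated data with the same spread for every gene. On the real arrays the spread differs between genes, so that test does not show how often a true change is found. The lone control array is assumed to vary like the hairpins. The number of arrays limits the precision. Probe sequences were not used here, so cross-hybridisation between paralogues was not checked.

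Some genes that the name rule and the lists hold are not reported here and stand in no count or median of them. Members, lists and tests were chosen with earlier results of these data known. Each Hox gene counted is named, with values on each array where at least 3 arrays were above background and full statistics where 3 differences of one sign had a mean of at least 0.5. Of the other lists, the up to 4 members above background on all 4 arrays with the largest differences are named, with Islr, Pitx1, Tbx4, Tbx5, Tbx15, Emx2, En1, Lmx1b, Prrx1, Meis1, Meis2, Pbx3, Ezh2, Kmt2a, Cbx7 and Bmi1. The remaining TALE genes were named after their values were seen.

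Alternatives were quantile normalization, median centring, normexp (offset 50) with quantile normalization, the series table, no filter, a filter on all 4 arrays, the mean over probes, every kept probe fitted alone, no outlier spots, an intensity trend in eBayes, milder and stricter calls of signal above background, an adjusted p threshold of 0.1, a 1.5-fold rule and each hairpin left out.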

Additional observations from a re-analysis of the deposited data

How the results depend on the processing

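No paired analysis was possible because the control group has a single array, so the groups share fewer than 2 replicate numbers. The limma count of 0 Hox genes held under every alternative run. Islr, the target of the hairpins, was not called in the main fit or under the other scalings either. A count of 0 by this test therefore does not show that the Hox genes were unchanged. Without the filter, 1 Hox gene was 2-fold lower on all 3 hairpins (Hoxd4, below background on every array). The Hox median difference of -0.0606 was -0.0166 with quantile normalization, -0.1006 with the series table, and -0.0825 to -0.0597 with 1 hairpin left out. The count of TALE genes higher on all hairpins, 1, was 0 with quantile normalization, median centring, normexp and the series table, and 1 to 2 with 1 hairpin left out, an alternative set added after the data were seen. The cause was not tested. Other scalings moved the median of all genes by at most 0.04 in size. Of 604 values for single genes under an alternative, 586 moved by less than 1 SD over the 3 hairpins and 18 moved further. That count does not measure stability. With 1 hairpin left out, a mean of 3 cannot move by 1 SD. A change of filter returns the same value wherever the kept probe stays the same. With 1 hairpin left out, the mean difference moved by over 1.5 times for 28 of 55 genes, 13 of them Hox genes. The mean difference of 9 of 55 genes changed sign under an alternative, all with a size of at most 0.17 (Hoxa5, Hoxa6, Hoxb2, Hoxb5, Hoxb6, Hoxc8, Hoxc11, Haglr and Lmx1b), and none of them was called. Hox genes near background, such as Hoxa2, Hoxa4, Hoxa13 and Hoxc12, are limited by the signal over background.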
